A study of Mus musculus with 6 samples.

Results

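The matrix metalloprotease (Mmp), ADAMTS, ADAMTS-like and TIMP genes were followed across cultured mouse cells by RNA sequencing. They were taken by symbol, as Mmp, Adamts, Adamtsl or Timp followed by a number, with no use of their measured values. Of 51 mouse symbols of this form, 49 were among the 18305 genes counted: 21 Mmp, 19 Adamts, 5 Adamtsl and 4 Timp genes. Mmp7 and Mmp20 are not analysed here. All cells were from KM mice, and no group is labelled as carrying a transgene or other engineered allele. CiLC were embryonic fibroblasts at passage 3 to 5, from embryos of 12.5 or 13.5 days, to which small molecules were given 24 hours after seeding. The labels do not name those compounds. LC were cells isolated from testis, labelled as Leydig cells, at passage 0 to 1, and the labels give no age for the mice. MEF were fibroblasts of the same embryonic stages and passages, not labelled as induced. The series set them side by side to see how far CiLC resemble LC across the genome. Each group had 2 libraries, and nothing says that they came from separate cultures, so the p-values cover the spread of these libraries alone, and that may be technical.

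Mmp enzymes and ADAMTS enzymes are zinc proteases that cut the matrix around cells. They are made as inactive proenzymes, and their activity is set by transcription, by removal of the propeptide and by inhibitors, the TIMPs, which bind the active site. Collagenases cut fibrillar collagen, gelatinases cut denatured and basement membrane collagen, and stromelysins cut proteoglycans and activate other proenzymes. ADAMTS enzymes cut proteoglycans such as versican and aggrecan, trim procollagens or act on other targets, whereas ADAMTS-like proteins lack the protease domain. In the testis, Leydig cells sit in the loose matrix between the tubules, beside macrophages.

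Of the Mmp genes, 8 lie in a cluster on chromosome 9 in the order Mmp13, Mmp12, Mmp1b, Mmp3, Mmp1a, Mmp10, Mmp8 and Mmp27, per the RefSeq gene table of GRCm38.p6. A long non-coding RNA gene lies between Mmp10 and Mmp8. The reads were aligned to another build, mm9, so only the order is used for the counts. The sequences upstream of these genes are shown because most of these genes were higher in CiLC or LC than in MEF, and because many Mmp promoters are known to carry AP-1 sites, which Fos and Jun proteins bind. Each line gives the 250 bases before the annotated start (RefSeq, GRCm38.p6), 5′ to 3′ on the gene's strand. Capitals mark TGANTCA, the letters of an AP-1 site. The windows are chr9:7445572-7445821 (+ strand) for Mmp3, chr9:7272264-7272513 (+ strand) for Mmp13, chr9:7347124-7347373 (+ strand) for Mmp12 and chr9:7502092-7502341 (+ strand) for Mmp10. For Mmp1b the window is chr9:7388027-7388276 (- strand), for Mmp8 chr9:7558179-7558428 (+ strand) and for Mmp27 chr9:7571146-7571395 (+ strand).
Mmp3: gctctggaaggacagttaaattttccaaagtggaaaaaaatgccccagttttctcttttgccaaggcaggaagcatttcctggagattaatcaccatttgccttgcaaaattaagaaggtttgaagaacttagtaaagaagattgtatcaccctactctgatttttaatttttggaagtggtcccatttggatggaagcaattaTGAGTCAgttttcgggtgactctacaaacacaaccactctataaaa
Mmp13: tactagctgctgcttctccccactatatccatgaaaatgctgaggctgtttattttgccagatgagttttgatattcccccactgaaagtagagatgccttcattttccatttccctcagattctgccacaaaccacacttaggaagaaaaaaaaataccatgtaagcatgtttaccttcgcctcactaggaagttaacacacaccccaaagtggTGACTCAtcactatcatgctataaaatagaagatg
Mmp12: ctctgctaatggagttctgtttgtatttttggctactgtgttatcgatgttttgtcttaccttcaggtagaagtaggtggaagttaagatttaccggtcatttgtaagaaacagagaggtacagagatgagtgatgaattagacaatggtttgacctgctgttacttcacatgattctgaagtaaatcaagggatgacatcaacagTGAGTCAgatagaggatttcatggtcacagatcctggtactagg
Mmp10: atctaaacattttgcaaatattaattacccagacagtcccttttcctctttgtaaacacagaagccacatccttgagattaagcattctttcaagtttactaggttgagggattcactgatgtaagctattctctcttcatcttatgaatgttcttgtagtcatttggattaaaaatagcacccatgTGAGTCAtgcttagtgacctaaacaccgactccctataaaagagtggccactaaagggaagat
Mmp1b: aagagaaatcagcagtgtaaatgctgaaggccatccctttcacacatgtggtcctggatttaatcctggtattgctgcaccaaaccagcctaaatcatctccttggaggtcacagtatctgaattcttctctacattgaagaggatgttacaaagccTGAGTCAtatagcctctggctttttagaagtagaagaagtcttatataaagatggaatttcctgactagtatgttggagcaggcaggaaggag
Mmp8: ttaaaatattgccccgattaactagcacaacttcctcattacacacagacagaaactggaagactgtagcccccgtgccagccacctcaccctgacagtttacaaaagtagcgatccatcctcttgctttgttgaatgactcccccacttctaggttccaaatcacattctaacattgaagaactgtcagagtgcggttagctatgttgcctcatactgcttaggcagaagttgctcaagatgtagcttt
Mmp27: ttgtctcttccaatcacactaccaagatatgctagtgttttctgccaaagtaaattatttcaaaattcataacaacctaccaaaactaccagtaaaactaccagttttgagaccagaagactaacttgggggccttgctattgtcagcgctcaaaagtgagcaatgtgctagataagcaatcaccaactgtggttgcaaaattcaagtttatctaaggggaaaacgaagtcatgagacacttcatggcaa

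The letters TGANTCA, searched on both strands, began at position -46 in Mmp3, -35 in Mmp13, -44 in Mmp12, -63 in Mmp10 and -93 in Mmp1b, counted from the annotated start. Mmp8 and Mmp27 held none. A second annotated start of Mmp12, whose window is not printed, held none either, and Mmp1a held a match. Among the 34 members with a window in the RefSeq table, these 6 genes of the chromosome 9 cluster were all that matched, in 6 of 36 windows. The letters stood in 6.75% of 32851 such windows of the genome. Members without a window were not searched. TATAAA was found in 8 of the 36 member windows, against 12.4% of all windows. Its 8 genes included Mmp3, Mmp13, Mmp10, Mmp1b and Mmp1a. Of 2 other motifs searched, the NF-kappa-B motif was in no member window (0.356% of all) and CCACACCC, bound by KLF factors, in that of Adamts13 (3.20% of all). All were searched on both strands. These are matches of letters in a short window, not measured sites, and no motif contains another.

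The libraries held 18.4 to 18.9 M estimated reads each. Levels are CPM, read counts scaled to a common library size, and fold changes are from edgeR's quasi-likelihood fit over all 14581 genes tested, with genes called at an adjusted p under 0.05. CPM is not corrected for gene length, so levels are compared between groups and not between genes. Markers of the labelled and of other cell types moved with the groups. Leydig markers summed to 144 to 148 CPM in CiLC and 1081 to 1109 CPM in LC, against 7.55 to 9.41 CPM in MEF. Most of the sum was Nr5a1 (69.3 and 68.7 CPM) and Star (58.4 and 57.6 CPM) in CiLC, and Cyp11a1 (718 and 693 CPM) in LC. In LC, however, Cyp17a1 (0.0294 ± 0.0416 CPM) and Lhcgr (0.146 ± 0.0398 CPM; SD, n = 2), which define androgen-making Leydig cells, were close to 0. In CiLC too, Cyp17a1 had 0.0509 and 0.0507 CPM and Lhcgr 0 and 0 CPM. Sertoli cell markers summed to 116 to 117 CPM in CiLC and 2245 to 2249 CPM in LC, against 34.5 to 36 CPM in MEF, with Clu the largest part in LC. All 7 tested were higher in LC than in MEF (100%), beside 35.7% of all genes. In CiLC 4 were higher than in MEF and 0 lower (57.1% and 0%), beside 26.1% and 25.5% of all genes. All 14 macrophage markers were above 0 in every group, with sums of 12199 to 12393 CPM in CiLC and 4778 to 5146 CPM in LC, against 9017 to 9147 CPM in MEF. Of 11 fibroblast markers, 6 were higher and 5 lower in CiLC than MEF (54.5% and 45.5%), beside 26.1% and 25.5% of all genes. In LC 3 were higher and 8 lower (27.3% and 72.7%), beside 35.7% and 35.0%. The largest fall in LC was that of Postn, with 34.4 and 29.9 CPM in LC, against 3260.3 and 3022 CPM in MEF. The largest rise was that of Pdgfra, with 1760 and 1814 CPM in LC, against 313 and 292 CPM in MEF. All 6 smooth muscle markers were lower in CiLC than MEF (100%), beside 25.5% of all genes. In LC 2 were higher and 4 lower than in MEF (33.3% and 66.7%), beside 35.7% and 35.0% of all genes. Their sums were 144 to 147 CPM in CiLC and 954 to 968 CPM in LC, against 1571 to 1649 CPM in MEF. Endothelial markers summed to 13.2 to 13.5 CPM in CiLC and 74.5 to 83.3 CPM in LC, against 28.6 to 28.7 CPM in MEF. Of the 6 tested, 3 were higher and 1 lower in LC than in MEF (50% and 16.7%), beside 35.7% and 35.0% of all genes. Cdh5 alone had 57.2 and 63.9 CPM in LC, against 4.14 and 3.02 CPM in MEF. Kdr went the other way, with 9.16 and 10.4 CPM in LC, against 18.9 and 19.6 CPM in MEF. The part of these cell types in the results that follow was not tested. These are bulk libraries, in which fewer cells of a type and less RNA per cell cannot be told apart.

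Of the 49 members, 46 passed the filter on low counts. Mmp1a, Mmp21 and Timp4 did not, with at most 2.18, 2 and 5 estimated reads in any library. Between CiLC and MEF, 22 of the 46 were higher in CiLC and 15 lower, that is 47.8% and 32.6%, beside 26.1% and 25.5% of all genes tested. Their median log2 fold change was 0.23, beside 0.0054 for all genes. Between LC and MEF, 20 were higher in LC and 20 lower (43.5% each), beside 35.7% and 35.0% of all genes, with medians of 0.051 and -0.0079. Between CiLC and LC, 22 were higher in CiLC and 18 lower (47.8% and 39.1%), beside 35.0% and 35.6% of all genes, with medians of 0.10 and 0.0046. The share of lower genes between CiLC and LC lay near that of all genes, and the 3 comparisons share libraries. Changes of at least 2-fold were made by 15 members higher and 5 lower between CiLC and MEF, where 6.23% and 5.98% of all genes did so. Between LC and MEF 16 and 15 did so, beside 14.3% and 12.9% of all genes, and between CiLC and LC 18 and 12, beside 11.4% and 14.0%.

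**Figure D1:**
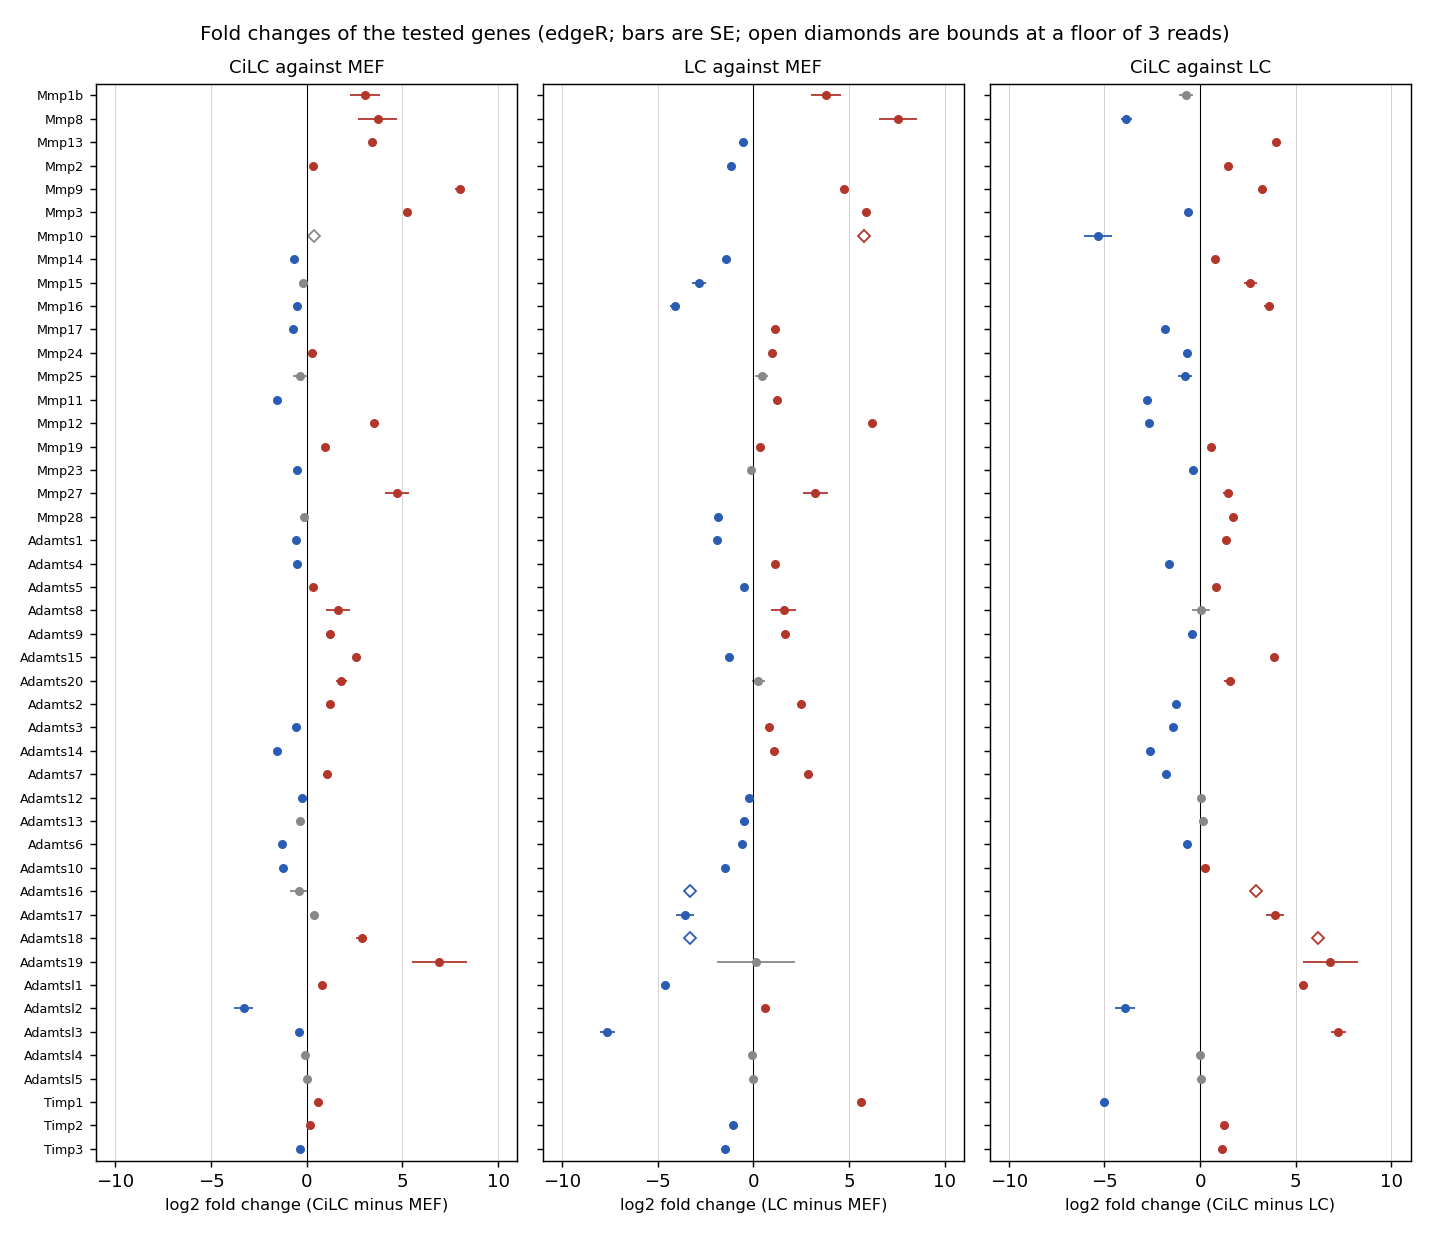
Log2 fold changes (horizontal axes) of the 46 tested genes in 3 comparisons, with bars for the SE, red for called higher, blue for called lower and grey for not called. Open diamonds are bounds at a floor of 3 reads where a group had 0 reads. Mmp9 lies farthest right between CiLC and MEF (7.99), and Adamtsl3 farthest left between LC and MEF (-7.64).

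Both stromelysins were higher in LC than in MEF, and 1 of them, Mmp3, was higher in CiLC. The shares were 100% in LC and 50% in CiLC, beside 35.7% and 26.1% of all genes. Mmp3, which cuts proteoglycans and activates other Mmp proenzymes, had 487 and 492 CPM in CiLC and 782 and 736 CPM in LC, against 14.9 and 10.8 CPM in MEF. All 4 CiLC and LC libraries lay far above both MEF libraries, with CiLC 38.1-fold higher than MEF (log2 fold change 5.25 ± 0.09 SE, adjusted p = 3.28e-23 by edgeR) and LC 59-fold higher (log2 fold change 5.88 ± 0.09 SE, adjusted p = 3.97e-25 by edgeR). CiLC stayed 1.55-fold below LC (log2 fold change -0.63 ± 0.06 SE, adjusted p = 5.75e-10 by edgeR). Its relative Mmp10, stromelysin 2, had 0.167 and 0.0553 CPM in CiLC and 4.41 and 4.27 CPM in LC, against 0 and 0 CPM in MEF. LC stood clear, at least 55.2-fold above MEF, which had 0 reads, at a floor of 3 reads over the group. The 4 rounded reads of CiLC were not called against MEF (edgeR adjusted p = 0.052; 0.0452 without CiLC replicate 2), and CiLC was 39.98-fold below LC (log2 fold change -5.32 ± 0.73 SE, adjusted p = 3.47e-10 by edgeR). Without CiLC replicate 1 that log2 fold change was -6.23. Reads of both genes were shared out: the 4 libraries with a fractional value in Mmp10 had one in Mmp3 too, and the pair summed to a whole number in each, 9582, 9700, 13570 and 12572 reads (within 0.005). The values of Mmp10, a near copy of Mmp3 in sequence, are therefore uncertain.

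All 3 tested collagenases were higher in CiLC than in MEF (100%), beside 26.1% of all genes. In LC 2 were higher and 1 lower (66.7% and 33.3%), beside 35.7% and 35.0% of all genes. Mmp13, the main interstitial collagenase of the mouse, had 116 and 113 CPM in CiLC and 7.94 and 6.65 CPM in LC, against 10.8 and 10.5 CPM in MEF. It was high in CiLC alone: 10.8-fold above MEF (log2 fold change 3.43 ± 0.08 SE, adjusted p = 3.36e-21 by edgeR) and 15.7-fold above LC (log2 fold change 3.97 ± 0.10 SE, adjusted p = 2.71e-22 by edgeR), whereas LC was 1.46-fold below MEF (-0.54 ± 0.12 SE; edgeR adjusted p = 0.000217). Mmp8, the collagenase known from neutrophils, had 0.865 and 0.659 CPM in CiLC and 11.5 and 10.8 CPM in LC, against 0.105 and 0 CPM in MEF. Its libraries ranked the other way, LC above CiLC and CiLC above MEF, where 2 reads were counted in all. The ratio of reads to MEF was 14.6 for CiLC, with an exact 95% binomial interval from 3.7 to 126. For LC it was 214, with an interval from 58.9 to 1775. CiLC was 14.6-fold below LC (log2 fold change -3.86 ± 0.29 SE, adjusted p = 2.66e-13 by edgeR). Neutrophil markers summed to 26.6 to 27.5 CPM over 7 genes in CiLC and 21.9 to 23.1 CPM in LC, against 43.5 to 49.5 CPM in MEF, with Elane at 0 in CiLC and LC and Mpo at 0 in CiLC and MEF. In CiLC and MEF most of that sum was Csf3r, which had 21 and 21.1 CPM in CiLC and 3.46 and 3.72 CPM in LC, against 42 and 37.1 CPM in MEF. Camp and S100a8, made by neutrophils, were highest in LC, as Mmp8 was. Camp had 0 and 0.203 CPM in CiLC and 9.16 and 7.95 CPM in LC, against 0 and 0.0521 CPM in MEF, and S100a8 had 0.356 and 0.406 CPM in CiLC and 1.74 and 2.00 CPM in LC, against 0.105 and 0.104 CPM in MEF. S100a8 was picked after its values were seen. Of the 4 tested, 3 were higher and 1 lower in LC than in MEF (75% and 25%), beside 35.7% and 35.0% of all genes. Cxcr2 was among the 3, with 8.34 and 8.16 CPM in LC, against 7.24 and 6.2 CPM in MEF (edgeR adjusted p = 0.0466). With only genes of a mean of at least 5 CPM kept, 1 was higher. The part of neutrophils in the Mmp8 values was not tested. Both MEF reads of Mmp8 were in replicate 1, and the fitted log2 fold change for LC was 10.69 without it and 6.65 without replicate 2. For CiLC these were 6.84 and 2.78.

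Mmp1b and Mmp1a, the mouse counterparts of human interstitial collagenase, were near the detection limit. Mmp1b had 0.865 and 0.951 CPM in CiLC and 1.86 and 1.23 CPM in LC, against 0.157 and 0.0521 CPM in MEF, and it was called higher in CiLC than in MEF (log2 fold change 3.05 ± 0.79 SE, adjusted p = 0.000221 by edgeR) and in LC than in MEF (log2 fold change 3.81 ± 0.78 SE, adjusted p = 2.5e-06 by edgeR). With only 4 reads in MEF, those values moved without MEF replicate 1, to 3.97 for CiLC and 4.72 for LC. The difference between CiLC and LC was not called (log2 fold change -0.75 ± 0.37 SE, adjusted p = 0.0674 by edgeR). Mmp1a had 0 to 2.18 reads in any library, and its fractional values summed with those of Mmp1b to whole numbers in both libraries concerned.

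The gelatinases differed in size of change. Mmp9, which cuts basement membrane collagen and is made by macrophages among other cells, had 364 and 381 CPM in CiLC and 38.3 and 40.3 CPM in LC, against 0.996 and 1.93 CPM in MEF. The groups did not come near each other: CiLC averaged 373 ± 12.1 CPM and LC 39.3 ± 1.45 CPM, against 1.46 ± 0.658 CPM in MEF (SD, n = 2 each). CiLC was 254-fold above MEF (log2 fold change 7.99 ± 0.21 SE, adjusted p = 1.84e-24 by edgeR) and 9.48-fold above LC (log2 fold change 3.24 ± 0.06 SE, adjusted p = 2.04e-22 by edgeR). LC was 26.7-fold above MEF (log2 fold change 4.74 ± 0.21 SE, adjusted p = 6.48e-19 by edgeR). Mmp2, whose proenzyme is activated at the cell surface by Mmp14 together with Timp2, had 748 and 750.4 CPM in CiLC and 264 and 276 CPM in LC, against 609.8 and 598 CPM in MEF. CiLC was 1.24-fold above MEF, a small step (log2 fold change 0.31 ± 0.04 SE, adjusted p = 3.03e-06 by edgeR) that was not called with an assumed spread (coefficient of variation) of 0.1 for every gene (adjusted p = 0.0958). LC was 2.23-fold below MEF (log2 fold change -1.16 ± 0.05 SE, adjusted p = 2e-16 by edgeR).

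**Figure D2:**
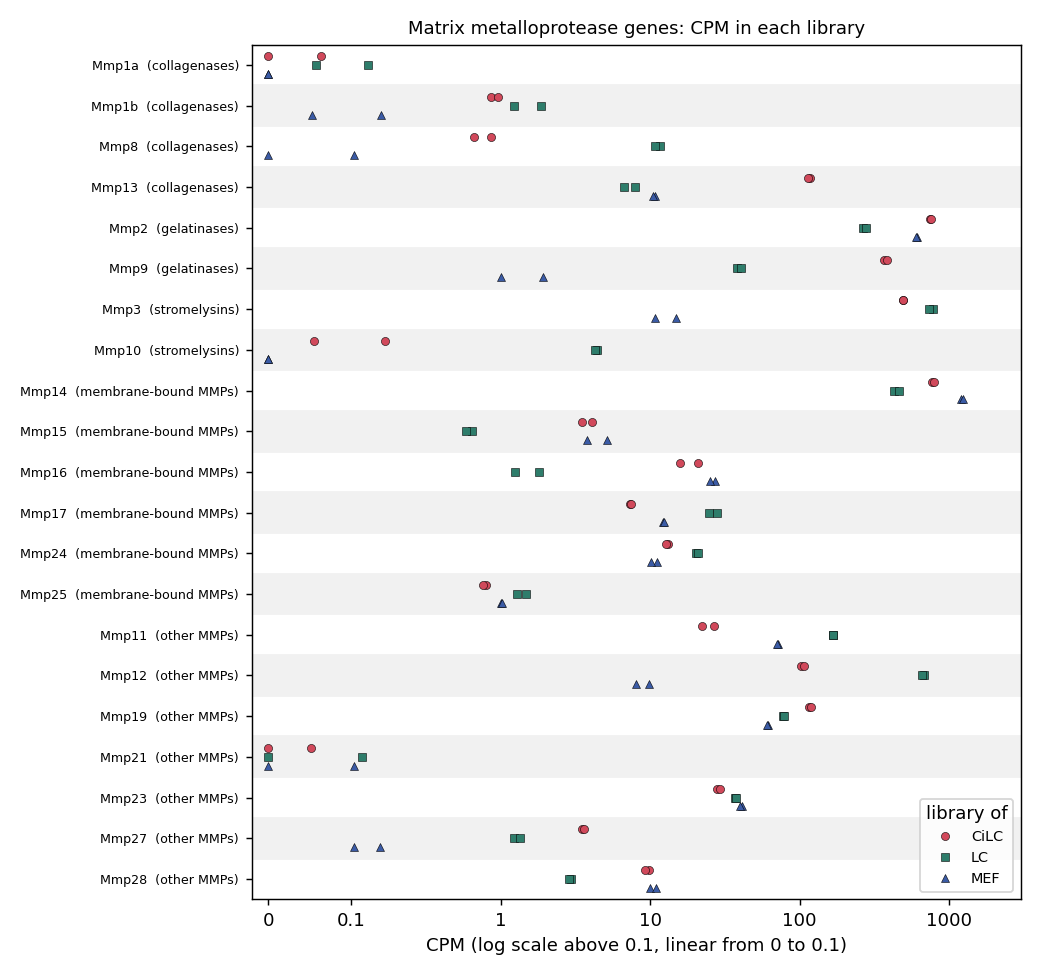
CPM of the 21 Mmp genes in each library (horizontal axis, log scale above 0.1 and linear below), with circles for CiLC, squares for LC and triangles for MEF. Mmp9 and Mmp13 are highest in CiLC, Mmp12, Mmp11 and Mmp8 in LC, and Mmp14 in MEF.

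Mmp12, macrophage elastase, was highest in LC. It had 101 and 107 CPM in CiLC and 674 and 654 CPM in LC, against 9.8 and 8.07 CPM in MEF. LC was 74.2-fold above MEF (log2 fold change 6.21 ± 0.09 SE, adjusted p = 2.35e-26 by edgeR), CiLC 11.6-fold above MEF (log2 fold change 3.54 ± 0.09 SE, adjusted p = 1.99e-20 by edgeR) and CiLC 6.38-fold below LC (log2 fold change -2.67 ± 0.05 SE, adjusted p = 3.28e-22 by edgeR). Of 14 macrophage markers, 10 were lower and 2 higher in LC than in MEF (71.4% and 14.3%), beside 35.0% and 35.7% of all genes. The 2 higher were Itgam and Adgre1, and 0 were called higher at an assumed spread of 0.1. Itgam ranked the groups as Mmp12 did, with 712 and 684 CPM in CiLC and 798 and 782 CPM in LC, against 663 and 651 CPM in MEF. Its CiLC values were not called against MEF (log2 fold change 0.09 ± 0.04 SE, adjusted p = 0.109 by edgeR). Adgre1 ranked the groups as Mmp9 did, with 375 and 360 CPM in CiLC and 186 and 182 CPM in LC, against 173 and 160 CPM in MEF. Its rise in LC was small (log2 fold change 0.14 ± 0.05 SE). Of the 10 lower in LC, Cx3cr1 fell most, with 82.2 and 79.4 CPM in CiLC and 40.6 and 38.7 CPM in LC, against 582 and 598 CPM in MEF. Between CiLC and MEF, 7 of the 14 were lower and 3 higher (50% and 21.4%), beside 25.5% and 26.1% of all genes. The share that was higher lay near that of all genes. Between CiLC and LC 12 were higher and 2 lower (85.7% and 14.3%), beside 35.0% and 35.6% of all genes. The part of macrophages in the values of Mmp12 and Mmp9 was not tested.

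The other secreted enzymes varied in size and direction of change. Mmp11, stromelysin 3, which furin activates inside the cell, had 22.1 and 26.8 CPM in CiLC and 167 and 167 CPM in LC, against 71.6 and 69.96 CPM in MEF. The direction was opposite in the comparisons with MEF: CiLC was 2.9-fold lower (log2 fold change -1.53 ± 0.07 SE, adjusted p = 9.46e-15 by edgeR) and LC 2.35-fold higher (log2 fold change 1.24 ± 0.06 SE, adjusted p = 2.8e-15 by edgeR), and CiLC was 6.82-fold below LC (log2 fold change -2.77 ± 0.07 SE, adjusted p = 9.84e-21 by edgeR). Mmp19 had 116 and 118 CPM in CiLC and 77.9 and 77.9 CPM in LC, against 61.4 and 60.7 CPM in MEF, with every CiLC value above every LC value and every LC value above MEF. CiLC was 1.92-fold above MEF (log2 fold change 0.94 ± 0.05 SE, adjusted p = 1.72e-13 by edgeR). Mmp27, a further gene of the chromosome 9 cluster, had 3.51 and 3.6 CPM in CiLC and 1.22 and 1.35 CPM in LC, against 0.105 and 0.156 CPM in MEF, which is 5 reads in MEF. It was higher in CiLC than in MEF (log2 fold change 4.70 ± 0.63 SE, adjusted p = 9.6e-10 by edgeR), higher in LC than in MEF (log2 fold change 3.23 ± 0.65 SE, adjusted p = 4.93e-06 by edgeR) and higher in CiLC than in LC (log2 fold change 1.46 ± 0.27 SE, adjusted p = 3.45e-05 by edgeR). Mmp28, epilysin, had 9.74 and 9.18 CPM in CiLC and 2.97 and 2.85 CPM in LC, against 10.002 and 11 CPM in MEF. LC stood apart, 3.62-fold below MEF (log2 fold change -1.86 ± 0.16 SE, adjusted p = 7.93e-11 by edgeR), while CiLC and MEF were not told apart by the test (log2 fold change -0.15 ± 0.11 SE, adjusted p = 0.269 by edgeR). Mmp23, which holds a membrane anchor that is cut off, had 28 and 29.5 CPM in CiLC and 36.7 and 37.5 CPM in LC, against 40.9 and 40.03 CPM in MEF. It was lower in CiLC than in MEF (log2 fold change -0.49 ± 0.06 SE, adjusted p = 6.56e-07 by edgeR) and lower than in LC (log2 fold change -0.37 ± 0.07 SE, adjusted p = 2.86e-05 by edgeR). Mmp21, known for its part in left-right patterning, had at most 2 reads in any library.

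Of the 6 membrane-bound enzymes, 3 fell and 1 rose in CiLC relative to MEF, and 3 fell and 2 rose in LC. In CiLC the shares were 50% and 16.7%, beside 25.5% and 26.1% of all genes. In LC they were 50% and 33.3%, beside 35.0% and 35.7%, so the share that rose lay near that of all genes. Mmp14, the main activator of pro-Mmp2 and a collagenase at the cell surface, had 764 and 788 CPM in CiLC and 429.7 and 461 CPM in LC, against 1203 and 1243 CPM in MEF. Both other groups were below MEF, CiLC by 1.58-fold (log2 fold change -0.66 ± 0.05 SE, adjusted p = 3.8e-11 by edgeR) and LC by 2.75-fold (log2 fold change -1.46 ± 0.05 SE, adjusted p = 5.61e-18 by edgeR). Mmp16 had 20.9 and 15.8 CPM in CiLC and 1.8 and 1.24 CPM in LC, against 27.3 and 25.1 CPM in MEF. It fell in CiLC (log2 fold change -0.51 ± 0.10 SE, adjusted p = 0.000232 by edgeR) and was 17.2-fold lower in LC than in MEF (log2 fold change -4.10 ± 0.24 SE, adjusted p = 7.3e-16 by edgeR). Mmp15 had 3.51 and 4.11 CPM in CiLC and 0.638 and 0.589 CPM in LC, against 3.77 and 5.1 CPM in MEF; LC was 7.17-fold below MEF (log2 fold change -2.84 ± 0.34 SE, adjusted p = 6.22e-09 by edgeR), and CiLC overlapped MEF (log2 fold change -0.22 ± 0.19 SE, adjusted p = 0.355 by edgeR). Mmp17, which is held to the membrane by a lipid anchor, moved in opposite directions in CiLC and LC. It had 7.34 and 7.48 CPM in CiLC and 24.8 and 27.8 CPM in LC, against 12.2 and 12.3 CPM in MEF, lower in CiLC than in MEF (log2 fold change -0.73 ± 0.11 SE, adjusted p = 8.83e-06 by edgeR) and higher in LC than in MEF (log2 fold change 1.10 ± 0.09 SE, adjusted p = 2.33e-10 by edgeR). Mmp24 had 13.2 and 12.7 CPM in CiLC and 20.3 and 20.7 CPM in LC, against 11.1 and 10.05 CPM in MEF. Its rise in LC was 1.94-fold (log2 fold change 0.95 ± 0.10 SE, adjusted p = 6.78e-09 by edgeR). The rise in CiLC (log2 fold change 0.29 ± 0.10 SE, adjusted p = 0.0213 by edgeR) was lost with DESeq2 (adjusted p = 0.203), at an assumed spread of 0.1 (0.222), without CiLC replicate 1 (0.106) and without MEF replicate 2 (0.151). Mmp25, the other lipid-anchored enzyme and one known from leukocytes, had 0.791 and 0.761 CPM in CiLC and 1.28 and 1.48 CPM in LC, against 1.00 and 1.02 CPM in MEF. It was called lower in CiLC than in LC (log2 fold change -0.80 ± 0.36 SE, adjusted p = 0.0484 by edgeR), which DESeq2 did not call (adjusted p = 0.266), nor did a block for the replicate number (0.0597) nor any fit with 1 library left out (0.0604 to 0.183).

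Seen along the chromosome, 6 of the 7 tested Mmp genes of the chromosome 9 cluster (85.7%) were higher in CiLC than in MEF and none was lower (median log2 fold change 3.71). Of all genes, 26.1% were higher and 25.5% lower. Of the 12 tested Mmp genes elsewhere, 4 were higher and 5 lower, with a median of -0.29. Between LC and MEF, 6 of the 7 were higher and Mmp13 lower in LC (median 5.88), beside 5 higher and 5 lower of the 12 (median 0.11). The cluster's shares were 85.7% and 14.3%, beside 35.7% and 35.0% of all genes. Between CiLC and LC the cluster split, with 2 higher and 4 lower in CiLC (28.6% and 57.1%), beside 35.0% and 35.6% of all genes. Over both MEF libraries, Mmp10 had 0 reads, Mmp8 2, Mmp1b 4 and Mmp27 5. The cluster was set apart after these values had been seen, and no test of it was made. Mmp13, at the end of the cluster, was the only tested gene of it that was lower in LC than in MEF.

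**Figure D3:**
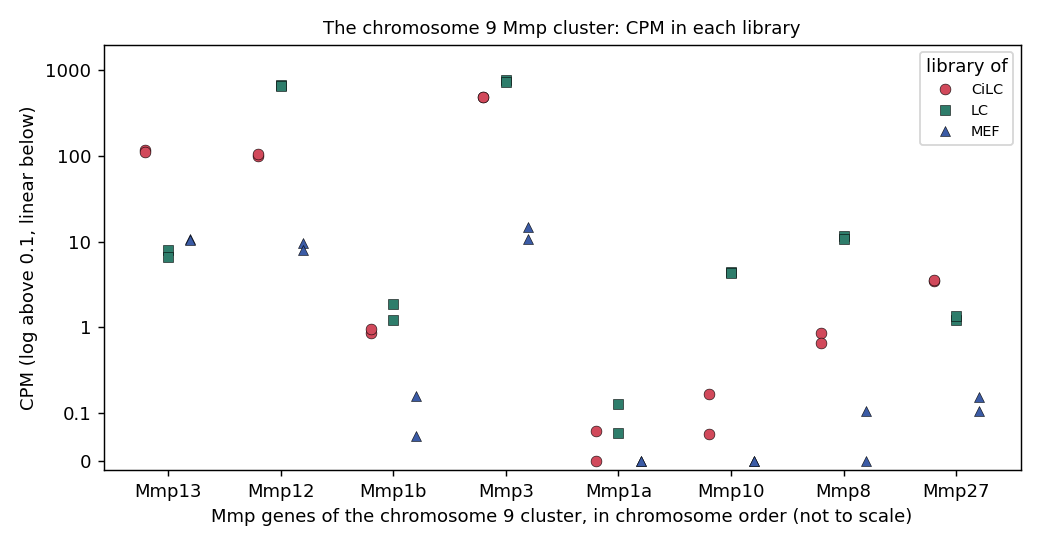
CPM (vertical axis, log above 0.1 and linear below) of the 8 Mmp genes of the chromosome 9 cluster in chromosome order, not to scale, with circles for CiLC, squares for LC and triangles for MEF. MEF libraries lie lowest except for Mmp13, where LC lies lowest, and Mmp1a, where a CiLC library is at 0 too.

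Of the ADAMTS enzymes that cut versican, aggrecan and related proteoglycans, 5 of 7 were higher in CiLC than in MEF and 2 lower. The shares were 71.4% and 28.6%, beside 26.1% and 25.5% of all genes, so the share that was lower lay near that of all genes. Adamts15 had 109.6 and 105 CPM in CiLC and 6.61 and 8.4 CPM in LC, against 18.1 and 18.4 CPM in MEF. It was high in CiLC alone, 5.89-fold above MEF (log2 fold change 2.56 ± 0.07 SE, adjusted p = 2.63e-19 by edgeR) and 14.3-fold above LC (log2 fold change 3.84 ± 0.10 SE, adjusted p = 1.15e-21 by edgeR), and LC was 2.43-fold below MEF (log2 fold change -1.28 ± 0.11 SE, adjusted p = 2.24e-10 by edgeR). Adamts9 had 269 and 264 CPM in CiLC and 354 and 373 CPM in LC, against 115 and 115 CPM in MEF, with both CiLC and LC above MEF, by 2.31-fold (log2 fold change 1.21 ± 0.05 SE, adjusted p = 7.84e-16 by edgeR) and 3.15-fold (log2 fold change 1.66 ± 0.05 SE, adjusted p = 4.85e-19 by edgeR). Adamts1, which cuts versican and lies beside Adamts5 on chromosome 16, had 443 and 416 CPM in CiLC and 170.0 and 169 CPM in LC, against 664 and 624 CPM in MEF. CiLC lay between the other groups, 1.5-fold below MEF (log2 fold change -0.58 ± 0.05 SE, adjusted p = 3.7e-10 by edgeR) and LC 3.8-fold below MEF (log2 fold change -1.93 ± 0.05 SE, adjusted p = 6.67e-20 by edgeR). Adamts5, the main aggrecanase of mouse cartilage, had 656 and 638 CPM in CiLC and 344 and 376 CPM in LC, against 510.5 and 504 CPM in MEF. CiLC was 1.28-fold above MEF (log2 fold change 0.35 ± 0.05 SE, adjusted p = 1.55e-06 by edgeR), not called at an assumed spread of 0.1 (adjusted p = 0.0534), and LC was 1.41-fold below MEF (log2 fold change -0.50 ± 0.05 SE, adjusted p = 3.94e-09 by edgeR).

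Adamts4, the other classical aggrecanase, had 14 and 14.4 CPM in CiLC and 42.3 and 46.2 CPM in LC, against 19.6 and 20.4 CPM in MEF. It was lower in CiLC than in MEF (log2 fold change -0.49 ± 0.09 SE, adjusted p = 4.08e-05 by edgeR) and higher in LC than in MEF (log2 fold change 1.15 ± 0.07 SE, adjusted p = 1.26e-12 by edgeR), the reverse of Adamts5. Adamts20 had 4.12 and 3.4 CPM in CiLC and 1.22 and 1.35 CPM in LC, against 1.42 and 0.729 CPM in MEF and was higher in CiLC than in MEF (log2 fold change 1.80 ± 0.30 SE, adjusted p = 1.05e-05 by edgeR) and in LC (log2 fold change 1.54 ± 0.29 SE, adjusted p = 3.74e-05 by edgeR). Adamts8 had 0.458 and 0.862 CPM in CiLC and 0.522 and 0.765 CPM in LC, against 0.262 and 0.156 CPM in MEF. Its call in CiLC against MEF (log2 fold change 1.63 ± 0.64 SE, adjusted p = 0.024 by edgeR) was lost with DESeq2 (adjusted p = 0.187), without a filter (0.0568) and without CiLC replicate 2 (0.276), MEF replicate 1 (0.0544) or MEF replicate 2 (0.169). That in LC against MEF (log2 fold change 1.59 ± 0.65 SE, adjusted p = 0.0232 by edgeR) was lost with DESeq2 (0.154) and without LC replicate 2 (0.168) or MEF replicate 2 (0.149).

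**Figure D4:**
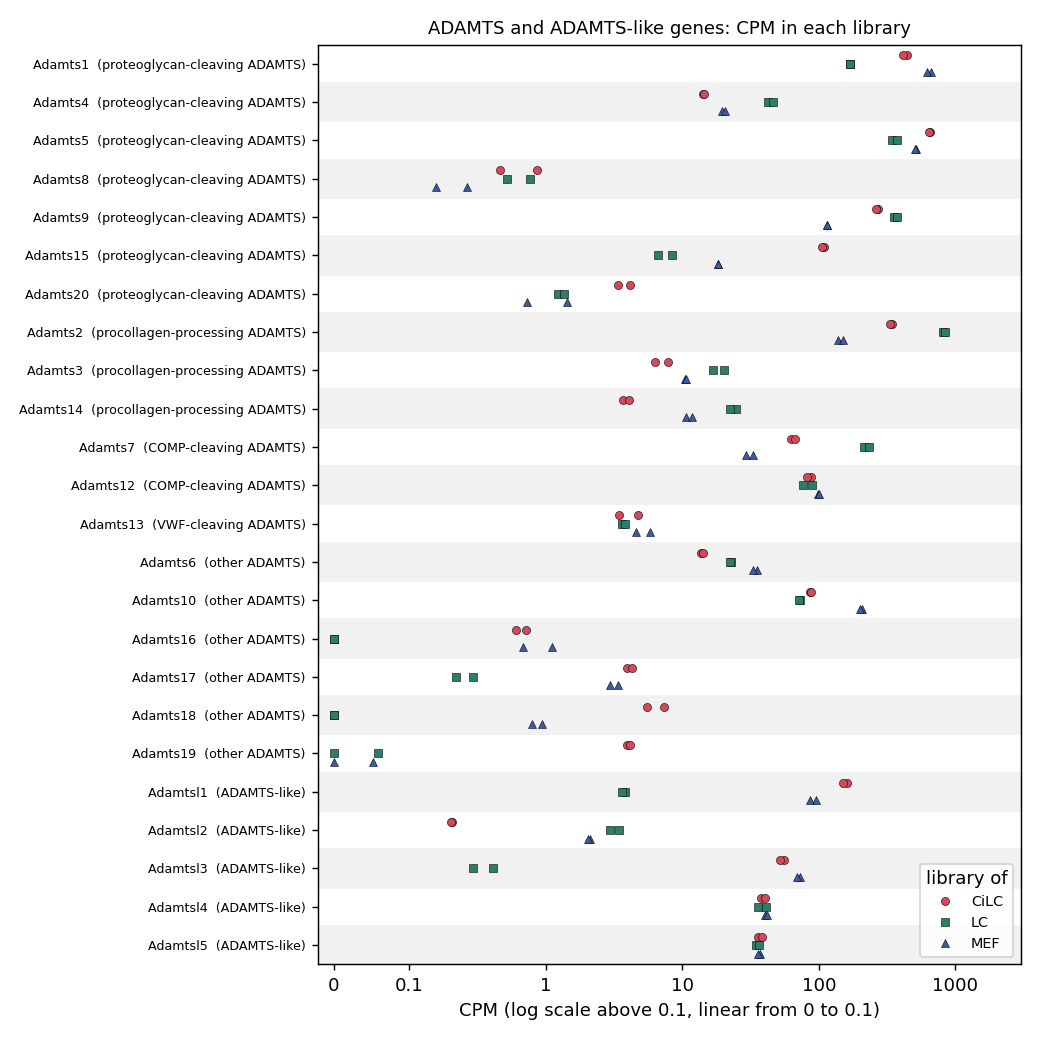
CPM of the 24 Adamts and Adamtsl genes in each library (horizontal axis, log scale above 0.1 and linear below), with circles for CiLC, squares for LC and triangles for MEF. Adamts15, Adamts18 and Adamts19 are highest in CiLC, Adamts2 and Adamts7 in LC, and LC is lowest for Adamtsl1 and Adamtsl3.

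All 3 enzymes that remove the amino-terminal propeptide of fibrillar procollagens were higher in LC than in MEF, and all 3 were lower in CiLC than in LC. Of all genes, 35.7% were higher in LC than in MEF and 35.6% lower in CiLC than in LC. Adamts2 had 346 and 333 CPM in CiLC and 813 and 832 CPM in LC, against 139 and 149.8 CPM in MEF. It was 5.7-fold higher in LC than in MEF (log2 fold change 2.51 ± 0.05 SE, adjusted p = 4.17e-22 by edgeR) and 2.35-fold higher in CiLC than in MEF (log2 fold change 1.23 ± 0.05 SE, adjusted p = 1.06e-15 by edgeR). Adamts14 had 3.68 and 4.03 CPM in CiLC and 24.6 and 22.4 CPM in LC, against 10.7 and 11.7 CPM in MEF, and Adamts3, which also activates the lymphatic growth factor VEGF-C, had 7.84 and 6.29 CPM in CiLC and 16.9 and 20.3 CPM in LC, against 10.4 and 10.7 CPM in MEF. In contrast to Adamts2, both were lower in CiLC than in MEF, Adamts14 by 2.91-fold (log2 fold change -1.54 ± 0.14 SE, adjusted p = 8.91e-10 by edgeR) and Adamts3 by 1.49-fold (log2 fold change -0.58 ± 0.13 SE, adjusted p = 0.000715 by edgeR). In LC they were 2.1-fold (log2 fold change 1.07 ± 0.10 SE, adjusted p = 1e-09 by edgeR) and 1.76-fold (log2 fold change 0.82 ± 0.11 SE, adjusted p = 9.42e-07 by edgeR) above MEF.

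Of the enzymes that cut cartilage oligomeric matrix protein, Adamts7 had 62 and 67.1 CPM in CiLC and 214 and 233 CPM in LC, against 29.3 and 33.1 CPM in MEF. Both CiLC (log2 fold change 1.05 ± 0.07 SE, adjusted p = 1.25e-11 by edgeR) and LC (log2 fold change 2.84 ± 0.07 SE, adjusted p = 3.85e-21 by edgeR) were above MEF. Adamts12 had 87.1 and 82 CPM in CiLC and 76.4 and 89.6 CPM in LC, against 97.9 and 99.6 CPM in MEF, with small falls in CiLC (log2 fold change -0.22 ± 0.06 SE, adjusted p = 0.0034 by edgeR) and LC (log2 fold change -0.25 ± 0.06 SE, adjusted p = 0.000925 by edgeR). The call in CiLC was lost without CiLC replicate 2 (adjusted p = 0.0715) and at an assumed spread of 0.1 (0.282), and that in LC without LC replicate 1 (0.0638) and at 0.1 (0.147). Adamts13, which cuts von Willebrand factor, had 4.7 and 3.44 CPM in CiLC and 3.59 and 3.78 CPM in LC, against 4.54 and 5.76 CPM in MEF. It was called in LC against MEF (log2 fold change -0.49 ± 0.19 SE, adjusted p = 0.0239 by edgeR), and not with DESeq2 (adjusted p = 0.199), without a filter (0.058), or without LC replicate 1 (0.116), LC replicate 2 (0.0767) or MEF replicate 2 (0.238). In CiLC against MEF it was not called (log2 fold change -0.35 ± 0.18 SE, adjusted p = 0.111 by edgeR), but it was without CiLC replicate 1 (adjusted p = 0.0398) or MEF replicate 1 (0.0469).

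Of the 6 remaining ADAMTS genes, 5 were lower in LC than in MEF and none was higher (83.3% and 0%), beside 35.0% and 35.7% of all genes. Adamts18 had 7.28 and 5.48 CPM in CiLC and 0 and 0 CPM in LC, against 0.786 and 0.937 CPM in MEF. CiLC was 7.35-fold above MEF (log2 fold change 2.88 ± 0.29 SE, adjusted p = 2.67e-09 by edgeR), and LC had 0 reads, which sets CiLC at least 72.7-fold and MEF at least 9.84-fold above LC. Adamts16 had 0.712 and 0.609 CPM in CiLC and 0 and 0 CPM in LC, against 1.1 and 0.677 CPM in MEF, with 0 reads in LC as well, so that CiLC was at least 7.54-fold and MEF at least 10.1-fold above LC. Between CiLC and MEF it was not called (log2 fold change -0.42 ± 0.43 SE, adjusted p = 0.433 by edgeR). Adamts19 had 3.92 and 4.11 CPM in CiLC and 0.058 and 0 CPM in LC, against 0 and 0.0521 CPM in MEF, that is 158 reads in CiLC and 1 each over LC and MEF. The ratio of CiLC to MEF was 154, with an interval from 27.2 to 6107, and to LC 137, from 24.3 to 5460.2. Without MEF replicates 1 and 2 in turn the fitted log2 fold change to MEF was 6.09 and 9.22, and without LC replicates 1 and 2 that to LC was 9.25 and 5.96. Intervals and floors cover counting error only. Adamts17 had 3.92 and 4.27 CPM in CiLC and 0.29 and 0.22 CPM in LC, against 3.38 and 2.96 CPM in MEF; LC was 11.8-fold below MEF (log2 fold change -3.57 ± 0.47 SE, adjusted p = 4.25e-09 by edgeR), and CiLC was not told apart from MEF (log2 fold change 0.36 ± 0.20 SE, adjusted p = 0.131 by edgeR).

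Adamts10, which acts on fibrillin microfibrils, and its close relative Adamts6 were highest in MEF. Adamts10 had 86.4 and 87.7 CPM in CiLC and 72.4 and 71 CPM in LC, against 207 and 201 CPM in MEF. CiLC was 2.35-fold (log2 fold change -1.23 ± 0.05 SE, adjusted p = 3.77e-16 by edgeR) and LC 2.85-fold below MEF (log2 fold change -1.51 ± 0.05 SE, adjusted p = 4.07e-18 by edgeR). Adamts6 had 13.6 and 14.1 CPM in CiLC and 22.8 and 22.5 CPM in LC, against 35 and 32.7 CPM in MEF. Here CiLC lay lowest, 2.44-fold below MEF (log2 fold change -1.29 ± 0.08 SE, adjusted p = 1.67e-12 by edgeR) and 1.63-fold below LC (log2 fold change -0.71 ± 0.08 SE, adjusted p = 9.68e-08 by edgeR).

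Among the ADAMTS-like genes, Adamtsl1 and Adamtsl3 were low in LC and high in CiLC and MEF. Adamtsl1 had 161 and 151 CPM in CiLC and 3.77 and 3.59 CPM in LC, against 95.4 and 86.6 CPM in MEF, and Adamtsl3 had 55.1 and 51.6 CPM in CiLC and 0.29 and 0.412 CPM in LC, against 72.9 and 69.2 CPM in MEF. LC lay 24.7-fold below MEF for Adamtsl1 (log2 fold change -4.63 ± 0.14 SE, adjusted p = 9.5e-22 by edgeR) and 199-fold below for Adamtsl3 (log2 fold change -7.64 ± 0.40 SE, adjusted p = 1.62e-22 by edgeR), where it had 12 reads in all. CiLC differed from MEF by much less, higher for Adamtsl1 (log2 fold change 0.78 ± 0.05 SE, adjusted p = 1.38e-11 by edgeR) and lower for Adamtsl3 (log2 fold change -0.41 ± 0.06 SE, adjusted p = 1.47e-06 by edgeR). Adamtsl2, which binds microfibrils and limits TGF-beta signalling, had 0.204 and 0.203 CPM in CiLC and 2.96 and 3.41 CPM in LC, against 2.1 and 2.03 CPM in MEF. It was 9.86-fold lower in CiLC than in MEF, at 4 reads in each CiLC library (log2 fold change -3.30 ± 0.52 SE, adjusted p = 3.4e-07 by edgeR). Its call as higher in LC than in MEF (log2 fold change 0.62 ± 0.25 SE, adjusted p = 0.0268 by edgeR) was lost with DESeq2 (adjusted p = 0.25) and without LC replicate 2 (0.153), MEF replicate 1 (0.0824) or MEF replicate 2 (0.0977). Adamtsl4, which binds fibrillin, had 37.6 and 40.3 CPM in CiLC and 35.6 and 41.3 CPM in LC, against 40.3 and 41.4 CPM in MEF, and Adamtsl5 had 35.8 and 38.4 CPM in CiLC and 34.8 and 36.5 CPM in LC, against 36.9 and 35.8 CPM in MEF. All groups overlapped for both genes, with log2 fold changes between -0.09 and 0.06 and SEs of 0.06 to 0.07.

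The inhibitors moved apart. Timp1, a soluble inhibitor of most Mmp enzymes, had 45.3 and 43.5 CPM in CiLC and 1449 and 1454 CPM in LC, against 31.3 and 28.4 CPM in MEF. LC averaged 1451 ± 3.77 CPM, against 29.9 ± 2.03 CPM in MEF (SD, n = 2 each), 48.6-fold higher (log2 fold change 5.60 ± 0.06 SE, adjusted p = 6.99e-27 by edgeR). CiLC was 1.49-fold above MEF (log2 fold change 0.57 ± 0.07 SE, adjusted p = 2.3e-07 by edgeR) and 32.7-fold below LC (log2 fold change -5.03 ± 0.06 SE, adjusted p = 3.13e-26 by edgeR). Timp2, which inhibits Mmp enzymes and also takes part in activation of pro-Mmp2, had 1918 and 1881 CPM in CiLC and 798 and 817 CPM in LC, against 1677 and 1714 CPM in MEF. LC was 2.1-fold below MEF (log2 fold change -1.07 ± 0.04 SE, adjusted p = 6.65e-16 by edgeR). CiLC was 1.12-fold above MEF (log2 fold change 0.16 ± 0.04 SE, adjusted p = 0.00357 by edgeR), a step lost without CiLC replicate 1 (adjusted p = 0.0689) and at an assumed spread of 0.1 (0.45). Timp3, which stays bound to the matrix and inhibits ADAMTS aggrecanases and Adam17 as well, had 1327 and 1271 CPM in CiLC and 572 and 610.0 CPM in LC, against 1645 and 1622 CPM in MEF. It was lower in CiLC than in MEF (log2 fold change -0.33 ± 0.05 SE, adjusted p = 2.65e-06 by edgeR), not so called at an assumed spread of 0.1 (adjusted p = 0.0719), and 2.76-fold lower in LC than in MEF (log2 fold change -1.47 ± 0.05 SE, adjusted p = 4.64e-18 by edgeR). Timp4 had 0.0509 and 0.0507 CPM in CiLC and 0.116 and 0 CPM in LC, against 0.105 and 0.26 CPM in MEF, at most 5 reads in any library. Of the 3 tested inhibitors, Timp1 was higher and Timp2 and Timp3 were lower in LC than in MEF (33.3% and 66.7%), beside 35.7% and 35.0% of all genes.

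**Figure D5:**
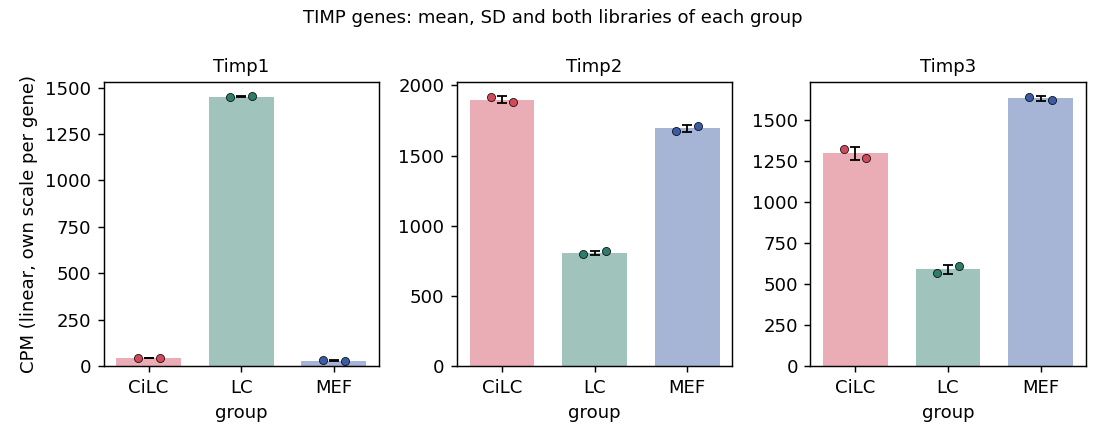
CPM (vertical axes, linear, each gene on its own scale) of Timp1, Timp2 and Timp3, with bars for the mean of 2 libraries, lines for the SD and points for the libraries. Timp1 stands at 1451 CPM in LC, whereas Timp2 and Timp3 are lowest in LC.

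Activators and other inhibitors of these enzymes were read from a list of 20 genes, of which 18 were tested. Between CiLC and MEF 10 were higher and 8 lower, and between LC and MEF likewise 10 and 8, that is 55.6% and 44.4%, beside 26.1% and 25.5% of all genes in the first comparison and 35.7% and 35.0% in the second. At an assumed spread of 0.1, 5 were lower in CiLC. Plau, the urokinase that makes plasmin, an activator of several Mmp proenzymes, had 54.8 and 54.3 CPM in CiLC and 104 and 97.1 CPM in LC, against 151 and 144 CPM in MEF. Both CiLC (log2 fold change -1.43 ± 0.05 SE, edgeR adjusted p = 2.25e-16) and LC (-0.55 ± 0.05 SE, edgeR adjusted p = 1.45e-09) were below MEF. Serpinb2, an inhibitor of urokinase and the gene of the list with the largest rise in both comparisons with MEF, had 2.7 and 1.52 CPM in CiLC and 463 and 478 CPM in LC, against 0 and 0.104 CPM in MEF. Reck, a membrane protein that inhibits Mmp14, Mmp2 and Mmp9, had 149.9 and 148 CPM in CiLC and 45.1 and 41.9 CPM in LC, against 125 and 124 CPM in MEF, so that it was lowest in LC. Bsg, also called EMMPRIN for its induction of Mmp genes in neighbouring cells, had 378 and 399.8 CPM in CiLC and 977 and 944 CPM in LC, against 297 and 291 CPM in MEF, so that it was highest in LC. The largest falls against MEF were those of Tfpi2 in CiLC, with 0.204 and 0.0507 CPM in CiLC, against 0.734 and 0.729 CPM in MEF, and of Pcsk6, a proprotein convertase, in LC, with 1.16 and 1.12 CPM in LC, against 85 and 87.7 CPM in MEF.

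Of 10 AP-1 factors, the family that binds the letters marked in the promoters above, 2 rose and 6 fell in CiLC relative to MEF, and 4 rose and 3 fell in LC. In CiLC the shares were 20% and 60%, beside 26.1% and 25.5% of all genes. In LC they were 40% and 30%, near the 35.7% and 35.0% of all genes. Between CiLC and LC 1 was higher and 7 lower (2 higher without LC replicate 2). In that comparison the shares were 10% and 70%, beside 35.0% and 35.6% of all genes. Fosb had 178 and 191 CPM in CiLC and 383 and 454 CPM in LC, against 804 and 832 CPM in MEF, the largest fall in CiLC relative to MEF (log2 fold change -2.15 ± 0.06 SE, edgeR adjusted p = 2.27e-18). Fosl1 had 1.06 and 1.91 CPM in CiLC and 37.7 and 43.9 CPM in LC, against 0.592 and 0.256 CPM in MEF and rose most in both CiLC (1.83 ± 0.46 SE) and LC (6.59 ± 0.41 SE). Atf3 had 44.1 and 43 CPM in CiLC and 24.8 and 26.8 CPM in LC, against 157 and 162 CPM in MEF, the largest fall in LC (-2.63 ± 0.06 SE, edgeR adjusted p = 3.01e-21). No value here links these factors to the Mmp genes, and a relation was not tested.

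Of 20 matrix proteins, among them substrates of these enzymes, 5 rose and 11 fell in CiLC relative to MEF, and 7 rose and 12 fell in LC. The shares that rose, 25% and 35%, lay near the 26.1% and 35.7% of all genes, and those that fell were 55% and 60%, beside 25.5% and 35.0%. Hapln1, which ties hyaluronan to proteoglycans, had the largest rise in CiLC, with 0.763 and 0.963 CPM in CiLC, against 0.262 and 0.0521 CPM in MEF. Type II collagen (Col2a1) had the largest fall in CiLC, with 0.0509 and 0.101 CPM in CiLC, against 7.81 and 8.8 CPM in MEF, and 0 reads in LC. Aggrecan (Acan), which several ADAMTS enzymes cut, had the largest rise in LC, with 38.6 and 39.1 CPM in LC, against 0.0524 and 0.156 CPM in MEF. Versican (Vcan) had 2058 and 1949.6 CPM in CiLC and 239 and 271 CPM in LC, against 939 and 923 CPM in MEF, higher in CiLC and lower in LC than in MEF. Elastin (Eln), a substrate of Mmp12, had 103 and 116 CPM in CiLC and 21.1 and 21.1 CPM in LC, against 920.4 and 1007 CPM in MEF. It was lower in both than in MEF. Vcan and Eln were picked after their values were seen. These lists were compiled for their known relation to the enzymes, and nothing is read from them about activity, which was not measured.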

How the data were processed

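RNA of 6 libraries, 2 each of CiLC, LC and MEF, was sequenced on the BGISEQ-500 platform, per the labels' protocols. The authors deposited an estimated count per gene for each library, whole for most genes and fractional where reads were shared between genes. HISAT and the genome build mm9 are named per the submitters' processing notes. Not given in the sources used here are the aligner's version, the counting tool, the annotation and whether strand was used. Where genes overlap or lie antisense, their reads cannot be told apart. Library totals were 18.4 to 18.9 M.

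NCBI gene numbers were given symbols from the RefSeq table of GRCm38.p6, in which 18179 of 18305 matched. Estimated counts were rounded to whole numbers. Genes were kept by edgeR's filterByExpr (minimum count 10, minimum total 15), which left 14581 and removed 3724. edgeR 4.0.16 (R 4.3.3) was run with TMM scaling and the quasi-likelihood test over all 6 libraries, with 1 coefficient per group, a prior count of 0.125 and Benjamini-Hochberg adjustment over all genes tested, and the call at 0.05. The scripts were tested on simulated data. Alternatives were DESeq2 1.42.0, RLE size factors, no filter, a mean of at least 5 CPM, the 4 libraries compared alone, the replicate number as a block, an assumed coefficient of variation of 0.1 or 0.4, and each library left out. Libraries of a group differed by more than counting noise (chi-square per degree of freedom 1.80 in CiLC, 2.94 in LC and 2.77 in MEF), and each was counted as 1 library. That does not tell technical repeats from separate cultures.

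Values are printed per library for every tested gene and every Timp, and genes under 10 reads in every library are given by their range. From other lists, the called genes with the largest rise and fall in a comparison, and Reck, Plau and Bsg, may be named; 1 further gene listed there is not reported here, and others are left unnamed. The genes and lists were chosen with earlier results of these data known.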

Additional observations from a re-analysis of the deposited data

How the results depend on the processing

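The edgeR fit estimated a common coefficient of variation of 3.16%, and 117 of 138 results (46 genes in 3 comparisons) were called. In 14 other settings no called result turned direction, and 13 lost their call in a setting other than an assumed coefficient of variation of 0.4. At 0.4, 64 calls were lost, and 4 uncalled results gained a call in some setting. Then 10 genes were higher and 1 lower between CiLC and MEF, 11 higher and 9 lower between LC and MEF, and 12 higher and 10 lower between CiLC and LC; fewer calls follow from the larger assumed spread. Over all genes tested between CiLC and MEF, 2064 were higher and 2141 lower at 0.1, and 407 and 268 at 0.4, beside 3808 and 3721 in the fit reported.

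With 1 library left out, the counts between CiLC and MEF were 20 to 22 higher and 14 to 16 lower, those between LC and MEF 18 to 20 higher and 18 to 20 lower, and those between CiLC and LC 22 higher and 17 lower. With the replicate number as a block they were 22 and 15, 20 and 20, and 22 and 17, with the call of Mmp25 between CiLC and LC lost. Deviations of same-numbered libraries correlated at 0.104 for CiLC and MEF, -0.00754 for LC and MEF and -0.0853 for CiLC and LC, so the numbers are not shown to pair the samples.

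Uncalled results turned direction when 1 library was left out, and the cause was not tested. Between CiLC and MEF the log2 fold change ranged from -0.023 to 0.078 for Adamtsl5 and from -0.42 to 0.013 for Mmp15. Between LC and MEF it ranged from -2.31 to 2.41 for Adamts19, -0.14 to 0.80 for Adamts20, -0.19 to 0.014 for Adamtsl4 and -0.060 to 0.0053 for Adamtsl5. Between CiLC and LC it ranged from -0.082 to 0.14 for Adamts12, -0.088 to 0.35 for Adamts13, -0.48 to 0.43 for Adamts8 and -0.082 to 0.13 for Adamtsl4. Depth limits the genes with under 10 reads in at least 1 group, which are Mmp8, Mmp10, Mmp1b, Mmp27, Adamts8, Adamts16, Adamts17, Adamts18, Adamts19 and Adamtsl2 among those tested.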

Other observations

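Of 12 ADAM genes, membrane-anchored relatives of the ADAMTS enzymes, 4 rose and 3 fell in CiLC relative to MEF, and 3 rose and 6 fell in LC. In CiLC the shares, 33.3% and 25%, lay near the 26.1% and 25.5% of all genes. In LC they were 25% and 50%, beside 35.7% and 35.0%. The 3 that rose in LC were 1 without LC replicate 1, LC replicate 2 or MEF replicate 2, 1 without a filter, and 0 when the coefficient of variation was set to 0.1. Adam22, which lacks protease activity and is known as a receptor in the nervous system, had 24.2 and 23.5 CPM in CiLC and 0.87 and 1.18 CPM in LC, against 14 and 14.1 CPM in MEF. It had the largest fall in LC (log2 fold change -3.77 ± 0.23 SE, edgeR adjusted p = 2.2e-15). Adam8 had 405 and 421 CPM in CiLC and 517 and 510.5 CPM in LC, against 679 and 693 CPM in MEF, the largest fall in CiLC (log2 fold change -0.73 ± 0.04 SE, edgeR adjusted p = 2.23e-12).

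Of the 4 tested genes of the list of astacin proteases and procollagen C-proteinase enhancers, 3 were higher and 1 lower in LC than in MEF. The fit reported gave the same counts in CiLC against MEF. The shares were 75% and 25%, beside 35.7% and 35.0% of all genes in LC and 26.1% and 25.5% in CiLC. In CiLC 1 was higher at an assumed spread of 0.1 or with only genes of a mean of at least 5 CPM kept. With RLE size factors, DESeq2, no filter, the 4 libraries compared alone or the replicate block, 2 were. The count also fell when any 1 CiLC or MEF library was left out. Pcolce2, an enhancer of C-propeptide removal, had 0.56 and 0.355 CPM in CiLC and 5.45 and 6.59 CPM in LC, against 0.105 and 0.156 CPM in MEF. It had the largest rise in LC. Tll1, a C-proteinase, had 10.1 and 10.2 CPM in CiLC and 0.586 and 1.04 CPM in LC, against 21.6 and 22.6 CPM in MEF, the largest fall in LC (log2 fold change -4.74 ± 0.27 SE, edgeR adjusted p = 3.42e-17).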
